A study of Mus musculus with 7 samples.

Results

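Endothelial cells line blood vessels, and the cells described here are the barcodes of a mouse trigeminal ganglion library that carried endothelial marker RNA. A barcode is the tag of 1 droplet, and its unique molecular identifiers (UMIs) count captured RNA molecules. Members were chosen by measured values of this same library: Cldn5, Pecam1 and Cdh5 together had to have at least 5 of every 10000 UMIs. Members also had under 20 per 10000 for the macrophage genes C1qa, C1qb and C1qc and under 30 for the neuron genes Tubb3, Stmn2 and Prph. The rule found 367 members among 9427 kept barcodes, or 3.89% (3.51 to 4.30, exact Clopper-Pearson 95% interval). They held 3457566 UMIs, with a median of 6286 UMIs and 2764 genes per barcode. The other 9060 kept barcodes had a median of 11059.5 UMIs.

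The trigeminal ganglion, which holds the cell bodies of facial and dental sensory neurons, came from wild-type mice at postnatal day 3.5, with no Cre, deletion or treatment named for it; strain, sex and the number of pooled animals are not given in the labels. The same series has 6 molar libraries from postnatal day 7.5, 3 labelled wild type and 3 Gli1-CreER;Fgfr2fl/fl, all with tamoxifen induction, which were not analysed here. With 1 ganglion library there is no replicate error and no test. Ranges in parentheses after a ratio or a share are exact 95% intervals for counting error alone.

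Endothelial cells grow and survive on VEGF, which they sense through the receptor tyrosine kinases Kdr and Flt1, while angiopoietins act through Tek. In a sprouting vessel the Notch ligand Dll4 on leading cells restrains their neighbours through Notch receptors. Arteries, capillaries and veins differ in their genes. In the brain, WNT signals keep capillaries sealed with tight junctions and rich in transporters, whereas vessels of many peripheral tissues make Plvap, the protein of fenestral and caveolar diaphragms. In peripheral ganglia the vessels around the neuron cell bodies are known to be more permeable than those of the brain.

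The label was checked against a clustering of all kept barcodes that was made without the rule genes or any gene of the lists described below. In that clustering 1 cluster of 266 barcodes raised 7 of 7 endothelial markers other than the rule genes, and it held 253 of the 367 members, or 68.9%. The remaining 114 members, or 31.1%, lay in other clusters. Of these, 29 were in an unnamed cluster of low UMI counts led by haemoglobin and muscle genes, 20 in an unnamed cluster led by Mfap4, Ccn3 and Fxyd5, 19 in fibroblast-like clusters, 8 among B lineage-like and 8 among myelinating Schwann-like barcodes. The 114 had a median of 3444.5 UMIs, against 6969 in the 253. A single UMI of a rule gene had made 35 of the 114 members, and 74 of them had UMIs of only 1 rule gene. In the 253 these numbers were 5 and 13, and 204 had UMIs of all 3 genes. A further 13 barcodes of the cluster were not members, of which 8 had no UMI of a rule gene.

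The level of the rule genes separated these barcodes only in part. Among members with 5 to 10 rule UMIs per 10000, 12 of 102 lay in the endothelial-like cluster. Between 10 and 30 per 10000 it was 118 of 141, and from 30 upward 123 of 124. Just inside the threshold, the 28 barcodes at 5 to 6 per 10000 included 0 of the cluster and had 571 CPM (UMIs of a gene per 1000000 UMIs of the group) for Kdr, Flt1, Egfl7, Emcn and Esam summed. Just outside, the 60 barcodes at 4 to 5 had 204 CPM and 1 barcode in the cluster. The neuron limit set aside 38 further barcodes and the macrophage limit 2. Values below are for all 367 members, and those of the 253 members in the cluster are given beside them where they differ by more than about 1.5 times.

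**Figure D1:**
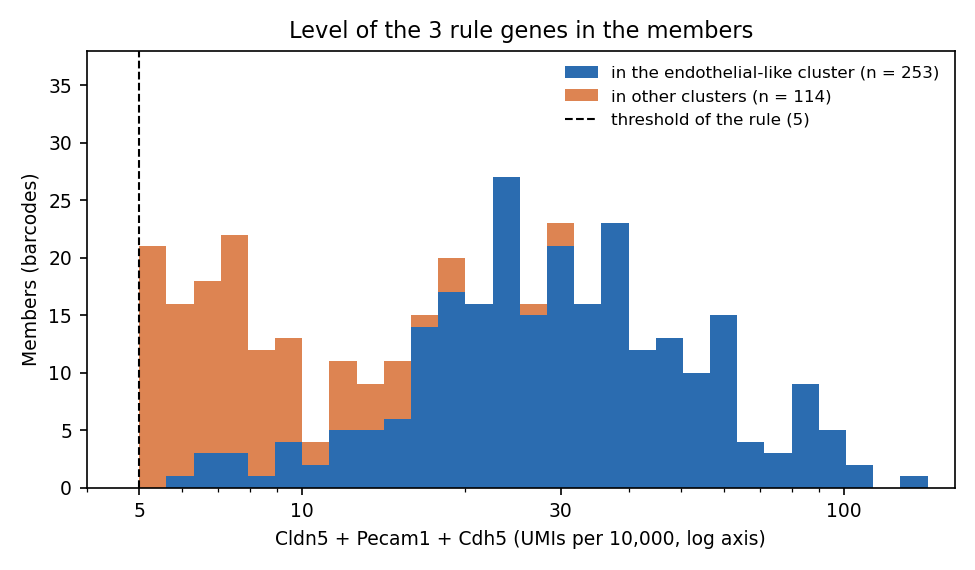
Number of members (y axis, barcodes) by the summed level of Cldn5, Pecam1 and Cdh5 (x axis, UMIs per 10000, log axis), stacked by whether the barcode lay in the endothelial-like cluster; the dashed line is the threshold of the rule at 5. The 114 members outside the cluster have a median of 7.27 per 10000 and crowd near the threshold, while the 253 inside it have a median of 29.7.

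Markers of fibroblasts, myelinating Schwann cells, erythroid cells and cartilage or bone were lower in the 253 than in the 114. In the 253, summed fibroblast markers stood at 1.53% of their level in fibroblast-like barcodes, with 6 of 7 markers detected and Dpt at 0. Mural markers (pericytes and smooth muscle) stood at 2.77%, with 10 of 10 detected, myelinating Schwann markers at 1.21%, neuron markers at 2.47%, erythroid markers at 2.71% and satellite glia markers, the highest share, at 5.63%. Mast cell markers were at 0.596% in the 253 and 0.307% in the 114. The macrophage marker Adgre1 was at 0 in all members. In the 114, fibroblast markers reached 43.4% of their own level, myelinating Schwann markers 13.0% and cartilage or bone markers 9.65%. The part of these cells in each ratio below was not tested apart from the values given for the 253.

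The rule genes chose the members, so their levels are a description. In mm10 the genes lie at chr16:18776847-18778262 (Cldn5, plus strand), chr11:106654217-106750628 (Pecam1, minus strand) and chr8:104101625-104144511 (Cdh5, plus strand). Cldn5, the main claudin of brain capillary tight junctions, ran per member from 0 through a median of 5.60 to 100.018 per 10000 UMIs. Pecam1, an adhesion protein of endothelial borders, ran from 0 through a median of 5.78 to 51.0. Cdh5, the cadherin of endothelial adherens junctions, ran from 0 through a median of 6.91 to 30.03. Each rule gene was absent from some members. Cdh5 was the rule gene found most often in members outside the cluster, with a UMI in 62.3% of them, against 35.1% for Cldn5. Among barcodes that were not members, Cdh5 stood at 153 CPM in an unnamed cluster led by Ptgds, Vtn and Slc6a20a and at 121 CPM in the one led by Mfap4. It stood at 73.2 CPM in a fibroblast-like cluster led by Apod, and at 14.5 CPM over all other barcodes. Pecam1 was at 79.1 CPM in B lineage-like barcodes.

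Kdr and Dll4 were given as markers and were not used by the rule. Kdr spans chr5:75932827-75978458 on the minus strand and Dll4 chr2:119325784-119335962 on the plus strand of mm10. Kdr per member ran from 0 through a median of 3.63 to 29.7 per 10000 UMIs, and Dll4 from 0 through a median of 0 to 15.2. Kdr had a UMI in 88.5% of the 253 and 14.9% of the 114. For Dll4 the shares were 56.1% and 10.5%, so both genes were found mostly in the members of the endothelial-like cluster. At an equal depth of 3000 UMIs, a Kdr UMI was found in 80.8% (74.7 to 85.9) of 208 of these cluster members and in 0.327% of 612 erythroid-like barcodes, which serve as a measure of free RNA. The median depths before thinning were 6969 and 10476 UMIs, and without thinning the shares were 88.5% and 0.787%. For Dll4 the thinned shares were 36.1% (29.5 to 43.0) and 0.163%, and the unthinned ones 56.1% and 0.315%. Dll4 was therefore far above the background of free RNA, yet was not detected in most cluster members at this depth.

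UMIs were summed over members and over the other kept barcodes and compared as CPM. A gene was counted as higher when both sides together had at least 20 UMIs, the ratio was at least 2 and its interval lay above 1, and as lower in the mirror case with a ratio of at most 0.5. Of 19932 genes with enough UMIs, 2150, or 10.8%, were higher and 2827, or 14.2%, were lower in members, and the median log2 ratio was 0.05. For the 253 members in the cluster the shares were 11.1% higher and 18% lower, which are the background for every count given for them. Counted as UMIs per barcode, 1140 were higher and 5926 lower, so the share of higher genes among those counted was 16.1% in place of 43.2%. Members had fewer UMIs per barcode, which shifts every log2 ratio on that scale by -0.66. Ratios below are of CPM and so are relative to the total RNA captured.

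Genes of the lists of endothelial biology stood apart from this background, while those of FGF and Hedgehog signalling did not in the same direction. Against 10.8% of all genes, 26 of 27 pan-endothelial genes other than the rule genes were higher, as were 21 of 22 barrier transporters and 25 of 28 transcription factors with enough UMIs. Some genes are in more than 1 list.

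**Figure D2:**
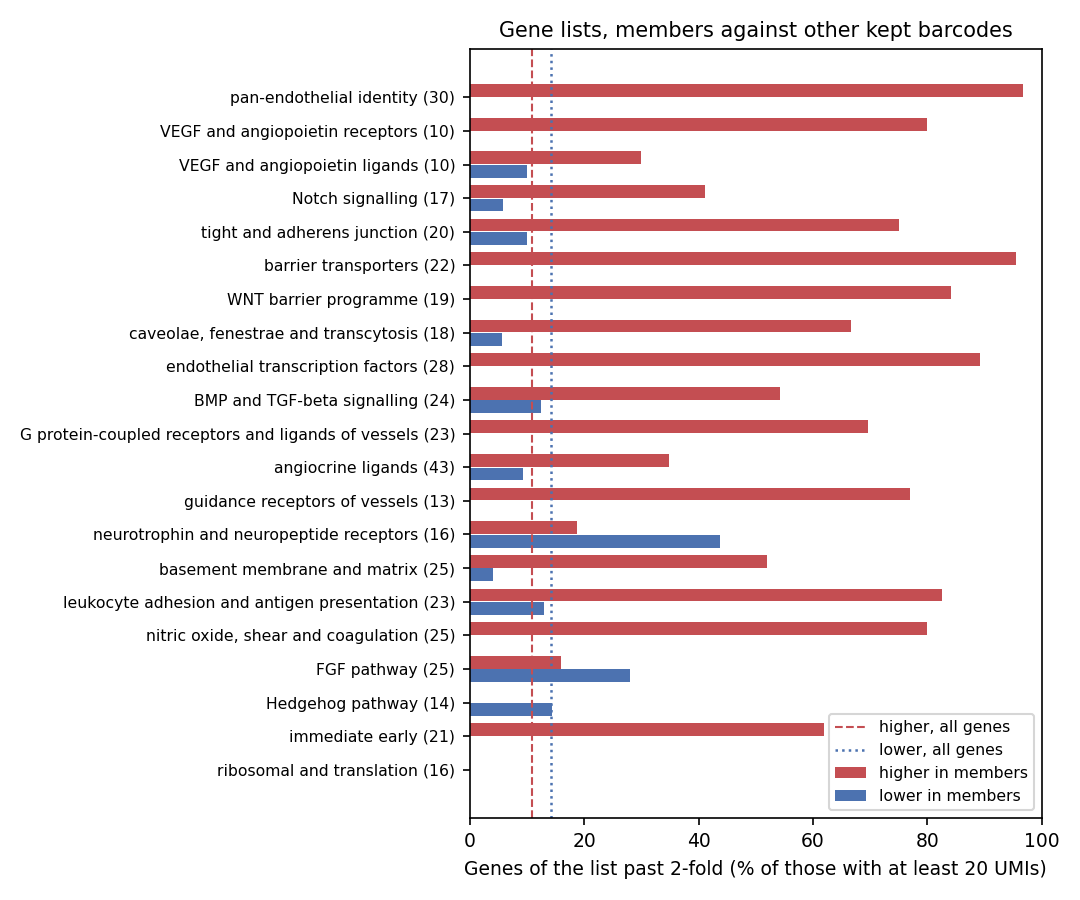
Percentage of the genes of each list that were higher (red) or lower (blue) in members than in other kept barcodes; numbers in brackets are genes with at least 20 UMIs, and the dashed and dotted lines are the percentages over all genes (10.8 higher, 14.2 lower). Most vessel lists have long red bars, the FGF, Hedgehog and neurotrophin lists have longer blue than red bars, and the ribosomal list has none.

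The pan-endothelial list has 30 genes with the 3 rule genes, which the rule itself makes higher. The 1 gene not counted as higher was Mcam, an adhesion molecule that mural cells also make, at 129 CPM in members and 80.1 CPM in other barcodes. The median log2 ratio of the list, rule genes included, was 6.57, or 6.94 in the 253. Cldn5 stood at 1633 CPM in members and 1.74 CPM elsewhere, a ratio of 937-fold (822 to 1072) that the rule itself helped to set. Robo4, an endothelial guidance receptor, stood at 141 against 0.274 CPM, 512-fold (367 to 737). Ly6c1, a surface protein of many endothelial cells, was 657-fold (476 to 933) higher; it has a near-identical neighbour, Ly6c2, so its reads could be split between them. Of the remaining markers, Egfl7, a secreted endothelial protein, stood at 972 against 29.6 CPM, and its unthinned UMIs were found in 68.4% of neuron-like barcodes, whose median depth was 85203 UMIs. Thinned, that share was 9.49%, against 92.3% of the cluster members.

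The stretch of DNA before the start of a gene is where many endothelial genes carry sites for ETS factors, whose core is GGAA. The 3 stretches below, each 250 bases long and ending just before the start, are shown because their genes stand for the rule (Cldn5), for VEGF reception (Flt1) and for the barrier group described further on (Slco1c1). They come from RefSeq with its build GRCm38.p6, are written 5′ to 3′ on the strand of the gene, and touch no annotated exon. Capitals mark AGGAAG or its reverse complement CTTCCT.
Cldn5 (chr16:18776597-18776846, plus strand): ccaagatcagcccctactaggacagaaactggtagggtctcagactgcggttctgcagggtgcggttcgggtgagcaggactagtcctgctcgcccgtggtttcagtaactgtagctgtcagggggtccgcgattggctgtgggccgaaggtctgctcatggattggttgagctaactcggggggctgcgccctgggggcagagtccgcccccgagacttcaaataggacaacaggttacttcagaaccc
Flt1 (chr5:147726012-147726261, minus strand): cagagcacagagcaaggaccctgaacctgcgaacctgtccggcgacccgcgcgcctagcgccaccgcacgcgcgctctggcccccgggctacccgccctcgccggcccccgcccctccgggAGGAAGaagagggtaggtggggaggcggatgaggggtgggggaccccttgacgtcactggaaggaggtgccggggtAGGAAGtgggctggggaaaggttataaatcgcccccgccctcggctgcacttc
Slco1c1 (chr6:141524104-141524353, plus strand): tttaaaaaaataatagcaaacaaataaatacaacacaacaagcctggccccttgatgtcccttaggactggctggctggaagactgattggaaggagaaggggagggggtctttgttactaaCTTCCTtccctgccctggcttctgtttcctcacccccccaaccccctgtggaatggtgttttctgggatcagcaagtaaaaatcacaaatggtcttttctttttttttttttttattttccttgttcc

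The Flt1 stretch holds AGGAAG at 2 places, which begin 129 and 53 bases before the start, and the Slco1c1 stretch holds CTTCCT beginning 128 bases before it. The Cldn5 stretch holds none, which says only that these letters are not in this window. The stretch of Tek, which also touches no annotated exon and is not printed, holds none either. Of 360 genes at least 10-fold higher in members, 237 had such a stretch, and 112 of these, or 47.3%, held AGGAAG on either strand. The share was 28.4% of 14333 genes with enough UMIs and 29.2% of all 27025. Of 17 pan-endothelial genes with a stretch, 10, or 58.8%, held it. CAGGAA, which shares AGGAA with it, was in 46.4% against 23.2%. CCGGAA was in 8.86% against 18.7%, and the core GGAA alone in 95.8% against 93.2%. ACAAAG, which ends in the CAAAG of SOX and TCF sites, was in 17.7% against 12.8%. The median GC content was 54.4% in the stretches of the higher genes and 58.4% in those of all genes with enough UMIs, and its part in the shares was not tested. AGGAAG was picked out of 10 strings after the shares had been seen, so these matches are a description.

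Receptors for the vessel growth factors were high with few exceptions. Of the 10 listed VEGF and angiopoietin receptors, 8 were higher and 0 lower, against the background of 10.8%. Kdr, the main signalling receptor of VEGF, stood at 475 against 2.12 CPM, 224-fold (197 to 255) higher. Flt1, a decoy as well as a signalling receptor, stood at 962 against 2.84 CPM, 339-fold (305 to 378). Tek, the angiopoietin receptor, was 115-fold (97.6 to 135) higher, and its orphan relative Tie1 99.9-fold (86.1 to 116). The co-receptor Nrp1 was 4.01-fold (3.76 to 4.27) higher. Nrp2, at 218 against 117 CPM, and the mural receptor Pdgfrb, at 27.5 against 31.9 CPM, were in neither group. In the 253 they were counted, Nrp2 as higher at 2.12-fold and Pdgfrb as lower at 0.466 times, so that 9 receptors were higher and 1 lower. The receptor of lymphatic and sprouting endothelium, Flt4, was at 52.1 against 0.519 CPM. Of the 10 ligands, 3 were higher: Vegfc at 37.3 CPM (10.5-fold, 8.58 to 12.8), Angpt2, which opposes Tek in remodelling vessels, at 30.9 CPM (2.77-fold, 2.26 to 3.37), and Angptl4 (2.02-fold, 1.76 to 2.30). Vegfb was lower, at 0.441 times (0.353 to 0.545) the level of other barcodes. Vegfa, at 25.2 against 24.2 CPM, was in neither group. Members thus carried the receptors far above other cells, while the ligands were mixed, with a list median log2 ratio of -0.0031. In the 253, 2 ligands were higher and 3 lower, among them Angpt1, the ligand that mural cells make, at 0.102 times.

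In the Notch list 7 of 17 genes were higher and 1 lower. Dll4, which was a given marker, stood at 119 against 0.860 CPM, 138-fold (112 to 171). Among barcodes that were not members its level was highest in the 85 mural-like ones, at 42.6 CPM, and it was at 2.57 CPM in satellite glia-like barcodes. Mfng, a glycosyltransferase that modifies Notch, was 31.9-fold (27.2 to 37.3) higher, Notch4, the endothelial Notch receptor, 21.6-fold (17.5 to 26.5), and the ligands Dll1 7.80-fold (5.58 to 10.7) and Jag2 4.33-fold (3.65 to 5.10). Notch1 (3.62-fold, 3.29 to 3.98) and the feedback gene Nrarp (4.61-fold, 4.03 to 5.25) were also higher. At 3000 UMIs, Notch1 was found in 41.8% (35.0 to 48.8) of cluster members and 36% (25.2 to 47.9) of mural-like barcodes. Hes5, a Notch target of neural progenitors and glia, was lower, at 0.0366 times (0.00443 to 0.132). The endothelial Notch targets Hey1 and Hey2 were in neither group, at 34.7 against 22.3 CPM and 7.23 against 13.5 CPM.

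Of 28 transcription factors with enough UMIs, 25 were higher and 0 lower, with a median log2 ratio of 3.06. The SoxF factors, which act in arterial identity and vessel growth, had the largest ratios of the list: Sox17 at 155 against 0.356 CPM (435-fold, 323 to 597), Sox7 at 172 against 0.400 CPM (429.9-fold, 325 to 579) and Sox18 at 110.5 against 0.341 CPM (324-fold, 238 to 450.1). Bcl6b, a repressor found in endothelium, was 209-fold (153 to 291) higher. The ETS factors Erg and Fli1 stood at 165 and 249 CPM, with ratios of 40.8 and 19.2. Etv2, the ETS factor that starts the endothelial lineage in the embryo, had 0 UMIs in members. The venous and lymphatic regulator Nr2f2, which many other cells make, was at 197 against 283 CPM and in neither group.

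Junction genes were raised, but not as a block. Of 18 genes other than Cldn5 and Cdh5, which chose the members, 13 were higher and 2 lower. The adhesion protein Esam was 173-fold (155 to 194) higher, the tight junction protein Ocln 19.2-fold (15.04 to 24.5) at 29.8 CPM, and Lsr, a protein of tricellular contacts, 14.1-fold (12.3 to 16.1). The scaffold Tjp1 was at 315 against 62.9 CPM. Cldn19, a claudin of myelinating Schwann cells, was lower at 0.168 times (0.131 to 0.213), and Jam3 at 0.484 times (0.410 to 0.567). In the 253 the ratio of Cldn19 was 0.0494.

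Transporters of the barrier type were higher nearly throughout, at 21 of 22, with 0 lower and a median log2 ratio of 3.11. The organic anion carriers Slco1a4 and Slco1c1, the second of which takes up thyroid hormone, were 376-fold (217 to 707) and 65.5-fold (57.1 to 75.3) higher, at 39.0 and 162 CPM. The efflux pump Abcb1a was 44.0-fold (38.2 to 50.8) higher and the organic anion transporter Slc22a8 27.2-fold (22.5 to 33.0). The glucose carrier Slc2a1 stood at 227 against 19.3 CPM, and the lipid carrier Mfsd2a at 78.7 against 16.0 CPM. Of 19 genes of the WNT barrier programme, 16 were higher and 0 lower. Foxq1, a forkhead factor of brain endothelium, was 82.5-fold (66.3 to 103) higher, and Fzd6, a WNT receptor, 19.0-fold (16.2 to 22.4). The WNT target Apcdd1 stood at 147 against 10.2 CPM, and Lef1 at 68.0 against 14.7 CPM.

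The genes of the leaky vessel type were high in the same pool. Plvap stood at 437 against 2.31 CPM, 189-fold (167 to 214). Gpihbp1, which holds lipoprotein lipase on capillaries, was 583-fold (439 to 790.0) higher, and Fabp4, a fatty acid carrier, 161-fold (145 to 179). The caveolar coat genes Cavin2 and Cav1 were 34.6-fold (31.2 to 38.3) and 24.1-fold (22.4 to 26.0) higher. In this list 12 of 18 genes were higher and 1 lower: Fabp5, a fatty acid carrier abundant in glia and neurons, at 0.245 times (0.226 to 0.265). In the 253, Lrp1 was lower as well, at 0.0976 times the level of other barcodes, whereas over all members its ratio was 0.727. The members thus held RNA of both the barrier and the permeable type, and the sub-clusters below show how these were divided among barcodes.

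**Figure D3:**
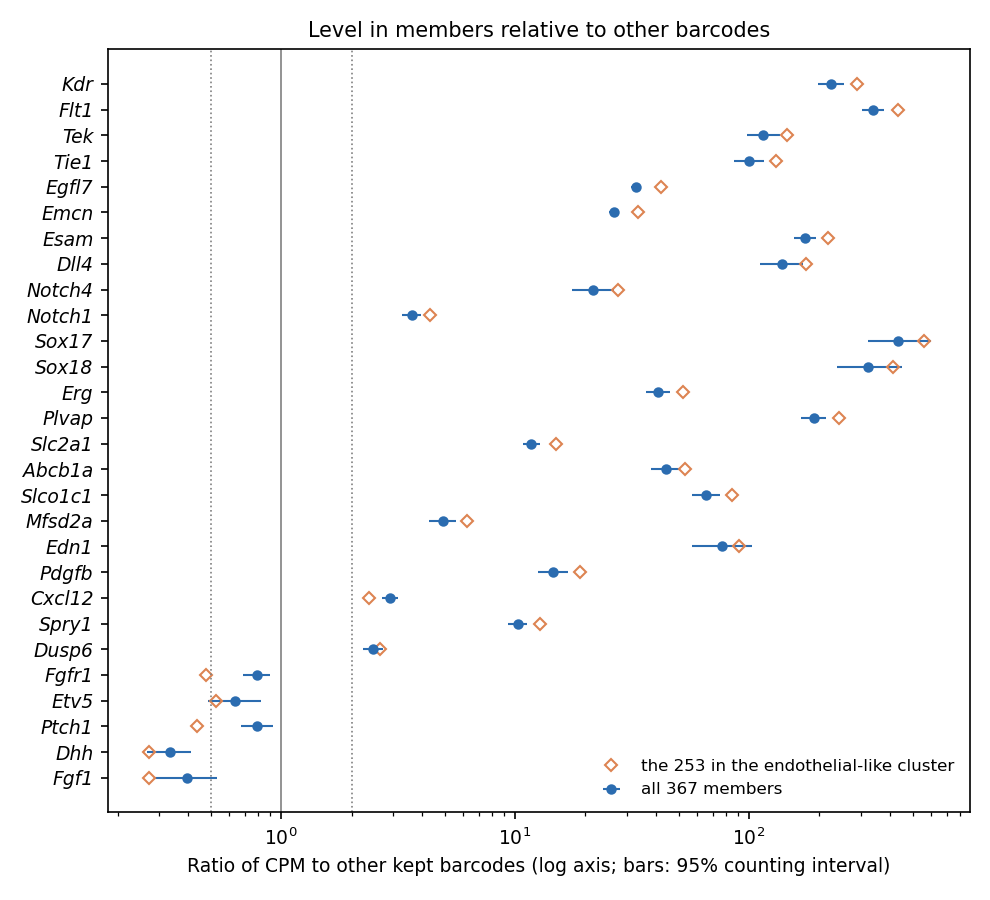
Ratio of CPM in members to CPM in other kept barcodes (x axis, log axis) for 28 genes, with filled circles for all 367 members, bars for their 95% counting interval, and open diamonds for the 253 in the endothelial-like cluster; grey lines mark ratios of 0.5, 1 and 2. Vessel genes lie from about Cxcl12 at 2.93 to Sox17 at 435, and Fgfr1, Etv5, Ptch1, Dhh and Fgf1 lie below 1.

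G protein-coupled receptors and their ligands were raised in 16 of 23 genes, with 0 lower. Adgrl4, an adhesion receptor of growing vessels, was 376-fold (313 to 455) higher, at 354 CPM. Aplnr, the apelin receptor, was 307-fold (235 to 407) higher and its ligand Apln, a gene of sprouting cells, 124-fold (94.4 to 163). Adgrf5 was 94.96-fold (83.7 to 108) higher. Of 13 guidance receptors, 10 were higher and 0 lower. After Robo4 the largest ratios were Efna1 (9.90-fold, 8.49 to 11.5), an ephrin, Plxnd1 (7.16-fold, 6.70 to 7.65), a semaphorin receptor, and Unc5b (6.24-fold, 5.32 to 7.30), the netrin receptor of endothelium.

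The list of nitric oxide, shear and coagulation had 20 of 25 genes higher and 0 lower. Gimap4 and Gimap6, small GTPases of lymphocytes and endothelium, were 102-fold (71.0 to 149.5) and 60.1-fold (54.6 to 66.2) higher, and Vwf, the clotting factor carrier, 48.9-fold (42.9 to 55.8). Nos3, the endothelial nitric oxide synthase, stood at 61.3 against 3.96 CPM. Of 23 genes of leukocyte adhesion and antigen presentation, 19 were higher and 3 lower, against 10.8% and 14.2% of all genes. The share of lower genes was thus near the background. The selectins Sele and Selp, which catch rolling leukocytes, were 387-fold (256 to 609.7) and 212-fold (162 to 281) higher, and Ly6a 147-fold (118 to 185). The lower genes were those of MHC class II: H2-Aa at 0.0605 times (0.0196 to 0.141), H2-Ab1 at 0.129 times (0.0642 to 0.231) and Cd74 at 0.394 times (0.321 to 0.478). In the 253 H2-Aa had 0 UMIs and H2-Ab1 2. Cd74 stood at 0.391 CPM in the 253 and 113 CPM in the 114, 8 of which were B lineage-like.

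Angiocrine ligands, the signals that endothelium sends to its neighbours, were higher in 15 of 43 genes with enough UMIs and lower in 4, with a median log2 ratio of 0.84. In the 253, 17 were higher and 10 lower, the lower ones at a share not far above the 18% of all genes. Tnfsf10 was 104-fold (73.8 to 149.8) higher and Esm1, a secreted proteoglycan of sprouting cells, 78.2-fold (65.7 to 93.5). Edn1, the vasoconstrictor endothelin, was 76.4-fold (57.3 to 103) higher at 41.4 CPM, and Igfbp7 19.2-fold (18.7 to 19.7) at 2416 CPM. Pdgfb, which recruits pericytes, stood at 75.5 against 5.18 CPM. The neurotrophins Bdnf and Ntf3 were lower, at 0.189 times (0.110 to 0.302) and 0.216 times (0.0586 to 0.554), as was Pdgfa at 0.294 times (0.238 to 0.359). In the 253 Bdnf was at 0.105 times. The neurotrophic factors Gdnf and Artn had 0 UMIs in members. Ptn and Mdk, growth factors of glia and fibroblasts, had ratios of 0.708 and 0.795 over all members and 0.203 and 0.202 in the 253.

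Receptors for neurotrophins and neuropeptides, through which a vessel could sense neurons, went both ways. Of 16 genes 3 were higher and 7 lower, against 10.8% and 14.2% of all genes. In the 253, 10 were lower, against 18% of all genes. The higher ones were Calcrl (12.4-fold, 11.4 to 13.5), Ramp2 (7.86-fold, 7.54 to 8.19) and Ramp3 (3.28-fold, 2.68 to 3.98), which form receptors of adrenomedullin and can also bind the sensory neuropeptide CGRP. Ramp1, the partner that makes Calcrl the CGRP receptor, was lower, at 13.3 against 35.8 CPM, 0.371 times (0.271 to 0.496), and at 0.120 times in the 253. Gfra3 (0.0223 times, 0.00270 to 0.0806) and Ret (0.0971 times, 0.0655 to 0.139), receptors of sensory neurons, were also lower. Ramp2 overlaps Vps25 on the same strand, and reads there may count for either gene.

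Of 25 genes of basement membrane and matrix, 13 were higher and 1 lower. Mmrn2 was 90.8-fold (76.4 to 108) higher, the laminin chains Lama5 and Lama3 19.4-fold (15.4 to 24.4) and 13.3-fold (10.1 to 17.3), and the collagen chain Col4a1 5.42-fold (5.26 to 5.58) at 1428 CPM. The integrin chain Itgb3 was lower, at 0.367 times (0.252 to 0.516), and at 0.180 times in the 253. In BMP and TGF-beta signalling 13 of 24 genes were higher and 3 lower, a share of lower genes near the background. Eng and Acvrl1, the co-receptor and receptor for circulating BMP9 and BMP10, were 56.7-fold (52.2 to 61.7) and 27.1-fold (23.9 to 30.8) higher. Ltbp4 and Tgfbr2 were 5.13-fold (4.68 to 5.62) and 4.68-fold (4.31 to 5.09) higher, while the receptor Bmpr1a was lower at 0.474 times (0.390 to 0.571), Id2 at 0.480 times (0.427 to 0.537) and Smad9 at 0.276 times (0.0750 to 0.711). In the 253, 5 genes of the list were lower, with Bmpr1a at 0.200 and Smad9 at 0.0934 times.

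FGF and Hedgehog signals are the subject of the series, which by its title asks how sensory nerve acts on progenitors of the tooth root through them. In members the FGF list had 4 genes higher and 7 lower of 25, against 10.8% and 14.2% of all genes. Its median log2 ratio was -0.62. In the 253 the counts were 4 and 9, against 11.1% and 18% of all genes. Over all members the higher ones were feedback inhibitors and 1 scarce receptor. Spry1 stood at 169 against 16.5 CPM, 10.3-fold (9.36 to 11.3). Il17rd was 4.16-fold (3.27 to 5.24) higher, Dusp6, a phosphatase induced by ERK, 2.46-fold (2.23 to 2.72), and Fgfr4 3.69-fold (1.43 to 7.99) on 7 UMIs. Spry1 and Dusp6 are known to be induced by VEGF and other receptor kinases as well. Of the ligands, the lower ones were Fgf1 at 12.4 against 31.5 CPM (0.395 times, 0.285 to 0.533), Fgf2 at 0.478 times (0.273 to 0.780) and Fgf9 at 0.299 times (0.120 to 0.619). In the 253 Fgf2 was at 0.283 times. The ligand Fgf7 (1 UMI in members), the ETS factors Etv1 and Etv4, and the inhibitor Spry3 (0 UMIs) were also lower.

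Of the receptors, Fgfr1 stood at 70.0 against 88.9 CPM and was in neither group, but in the 253 it was lower, at 0.480 times the level of other barcodes. Fgfr2 stood at 101 against 88.2 CPM; its annotated span covers many genes of the same strand, so this value is uncertain. Fgfr3 was at 5.78 against 3.63 CPM. Etv5, an ETS factor induced by FGF, was at 17.9 against 28.2 CPM, 0.636 times (0.487 to 0.818), and in neither group. Spry2, Spry4, Spred1 and Spred2 were also in neither group, with ratios of 0.772, 1.496, 1.06 and 1.58. Of the sprouty family only Spry1 was counted as higher, and this held on the scale of UMIs per barcode.

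No gene of the Hedgehog list was higher among 14, and 2 were lower, a share near the 14.2% of all genes. Dhh, the ligand made by Schwann cells, stood at 24.9 against 74.3 CPM, 0.335 times (0.268 to 0.414), and overlaps Rhebl1 on the same strand. Hhip, a decoy of the ligand, was at 0.410 times (0.224 to 0.691), and at 0.0793 times in the 253. Ptch1, the Hedgehog receptor and target, was at 48.0 against 60.9 CPM and the transducer Smo at 38.5 against 37.1 CPM. The members of the cluster differed here from those outside it. In the 253, 7 of 14 genes were lower, against 18% of all genes, with a median log2 ratio of -0.71, and Ptch1 was at 26.6 CPM against 109 CPM in the 114. Gas1 and Boc, Hedgehog co-receptors of mesenchyme, were at 19.6 and 5.48 CPM in the 253 and 251 and 65.4 CPM in the 114. Gli1, the target that marks Hedgehog response, was detected in 0% of 208 cluster members thinned to 3000 UMIs, which allows a share of up to 1.44%. Without thinning it was found in 0.395% of the 253.

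Immediate early genes, which cell dissociation can induce, were higher in 13 of 21 and lower in 0, with a median log2 ratio of 1.11. Ier3 was 5.16-fold (4.98 to 5.35) higher, Ier2 4.01-fold (3.83 to 4.21) and Fosl2 3.70-fold (3.33 to 4.11). Against mural-like barcodes 0 of 20 were higher and 3 lower. Ribosomal and translation genes were in neither group in 16 of 16, at a median log2 ratio of 0.14; on the scale of UMIs per barcode this median moves by the -0.66 given above. Hbb-bs, a haemoglobin gene of erythroid cells, had UMIs in 93.8% of cluster members at 3000 UMIs.

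Mural cells wrap the same vessels, so members were also set against the 85 mural-like barcodes. Of 11875 genes with enough UMIs, 1506, or 12.7%, were higher in members and 962, or 8.1%, lower, with a median log2 ratio of 0.06. Of 27 pan-endothelial genes other than the rule genes, 25 were higher and 1 was lower, and of 21 barrier transporters 20 were higher and 0 lower. Of 19 WNT barrier genes 9 were higher, and of 25 genes of basement membrane and matrix 9, with a median log2 ratio of 0.16 for the last. In the Notch list 5 of 16 genes were higher and 3 lower, with a median log2 ratio of 0.02. Kdr was 356-fold (63.9 to 14082) and Plvap 328-fold (58.8 to 12975) higher than in mural-like barcodes, each on 1 UMI there, so the ratios are known only within these wide intervals. The same holds for Cdh5, 522-fold (93.6 to 20634), whose use in the rule also took barcodes out of the mural-like set. Several genes had 0 UMIs in mural-like barcodes, and against a floor of 3 UMIs there Adgrl4 was at least 88.5-fold, Gpihbp1 at least 55.1-fold and Sox17 at least 38.7-fold higher. Also on 1 mural-like UMI, the gap protein gene Gja1 was 175-fold (31.3 to 6912) and Ly6e 200.2-fold (35.8 to 7915) higher. Gja1 stood at 189.7 CPM in the 253 and 355 CPM in the 114. Lower in members were the pericyte genes Higd1b, at 0.0108 times, and P2ry14, at 0.00799 times the mural level, or 0.00180 times in the 253. Some vessel genes differed less between the cell types: Dll4 was 2.78-fold and Esam 2.55-fold higher, Epas1, a hypoxia factor, had a ratio of 1.03, and Spry1 of 1.25.

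Outside the lists, the genes with the largest ratios and at least 100 UMIs in members were led by Tmem252 (501-fold, 309.8 to 859.9), a membrane protein, Unc45b (282-fold, 187 to 443), a chaperone known from muscle, and AU021092 (265-fold, 200.1 to 358). Car4, a carbonic anhydrase of capillary endothelium, was 239.8-fold (166 to 356) higher, Fam167b 236-fold (156 to 368) and Gkn3, a gene of brain arteries, 228-fold (141 to 387). Myct1 was 217-fold (176 to 269) higher, Ushbp1 183-fold (138 to 247) and Prnd 182-fold (149.7 to 224). Ccm2l, a relative of the cavernous malformation gene Ccm2, was 171-fold (119 to 251) higher and Rbp7, a retinol carrier of capillaries, 157-fold (113 to 222).

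To see how the members varied among themselves, they were clustered again without any gene of the lists. All 367 gave 12 sub-clusters, of which several carried fibroblast, Schwann, neutrophil or B lineage markers and held most of the 114. The 253 were therefore also clustered alone, a choice made after these data had been seen, and gave 8 sub-clusters of 14 to 56 barcodes. Names were taken from marker lists. A gene of the lists had no part in forming the sub-clusters, so its level in them is not set by the clustering, though some listed genes served as naming markers and are marked as such.

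**Figure D4:**
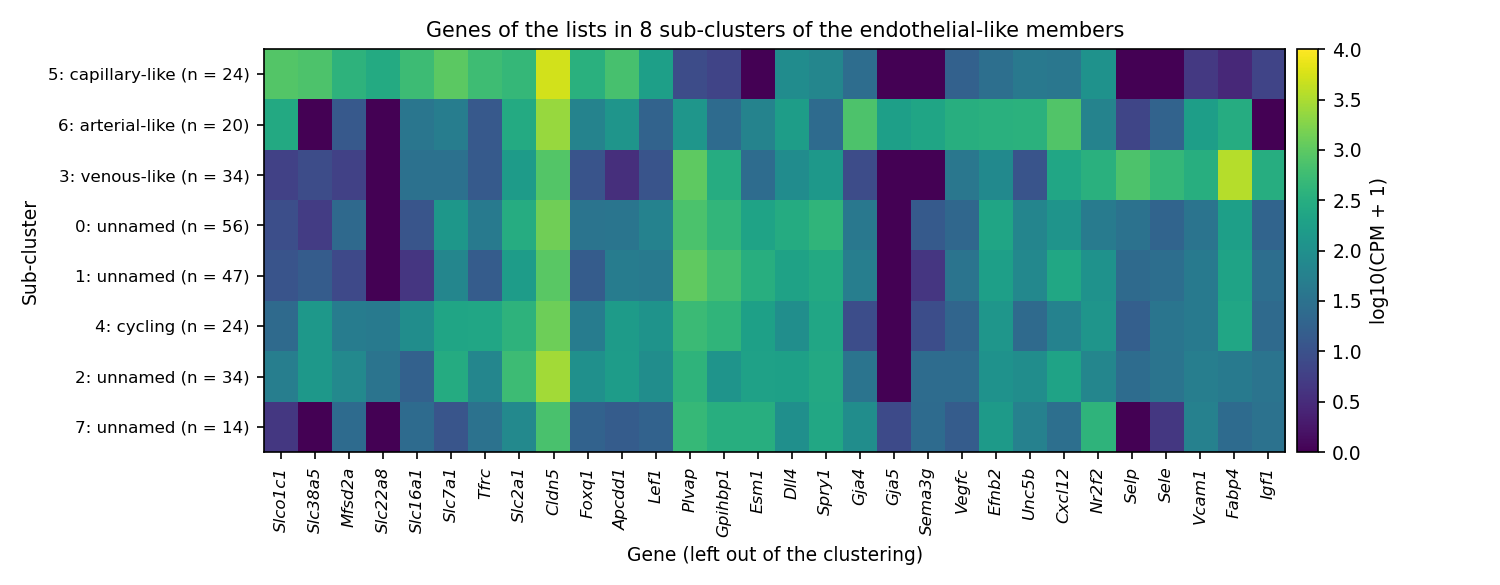
Levels of 30 listed genes (columns) in the 8 sub-clusters of the 253 members (rows), as log10 of summed CPM plus 1 in colour; no gene shown took part in the clustering. Barrier genes from Slco1c1 to Lef1, other than Slc2a1, are brightest in sub-cluster 5, where Plvap and Gpihbp1 are dark. Gja4 to Cxcl12 are brightest in sub-cluster 6, and Selp to Igf1 in sub-cluster 3.

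A small group of 24 barcodes, sub-cluster 5, had the highest level of barrier RNA. It was named capillary-like because 5 of 8 capillary markers were raised (Car4, Mfsd2a, Spock2, Slc16a1 and Tfrc). The capillary markers Gpihbp1, Cd36 and Rgcc were not raised in it, with Rgcc at 200 CPM against 108 to 1074 CPM in the other sub-clusters. Of 11 venous markers 2 were raised, among them Slc38a5. Of 6 markers of immature or non-myelinating Schwann cells 2 were raised. Their sum, 543 CPM, was the highest of the sub-clusters, against 17.9 to 301 CPM. Its median depth was 13533.5 UMIs. The transporters of the list summed to 8908 CPM there and to between 696 and 4243 CPM in the other 7 sub-clusters. Slco1c1 per barcode ran from 0 through a median of 7.01 to 24.4 per 10000 UMIs and was found in 23 of 24, against 19 of 229 other cluster members with a median of 0. Summed, it stood at 863 against 33.3 CPM, 26.0-fold (20.1 to 34.1). Slc22a8 was 37.7-fold (22.2 to 69.1) higher, with a UMI in 20 of 24 against 6 of 229. Slc38a5, a glutamine transporter, was 25.8-fold (19.6 to 34.4) higher, in 23 of 24 against 14 of 229. Slc7a1, the arginine transporter, had UMIs in 24 of 24 and stood at 967 against 97.8 CPM. The naming markers Slc16a1 and Mfsd2a stood at 556 and 388 CPM.

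WNT barrier genes and junction genes were highest in the same 24 barcodes. Apcdd1 was 11.9-fold (9.61 to 14.8) higher than in the other cluster members, Foxq1 11.1-fold (8.27 to 14.95) and Lef1 3.92-fold (2.92 to 5.27). Cldn5 ran per barcode from 5.93 through a median of 55.6 to 88.2 per 10000, against a median of 8.08 in the other 229; it is a rule gene. Ocln was 3.88-fold (2.57 to 5.86) and Lsr 4.30-fold (3.33 to 5.55) higher. In contrast Plvap had a UMI in 3 of these 24 and in 177 of the 229, at 7.39 and 708 CPM. Gpihbp1 was at 5.54 against 360.3 CPM. So Plvap and Gpihbp1 were low where Slco1c1, Slc22a8 and Slc38a5 were high.

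The division was also present barcode by barcode at equal depth for Slco1c1 and Mfsd2a, and less sharply for Slc2a1 and Cldn5. Among 208 cluster members thinned to 3000 UMIs, Plvap was found in 3 of 24 with an Slco1c1 UMI, or 12.5%, and in 73.9% of those without one. It was found in 4 of 28 with Mfsd2a, or 14.3%, and in 75.0% of those without. Slc2a1 was found in 83.3% of barcodes with Slco1c1 and 37.0% of those without. Slc2a1 was found in 34.5% of barcodes with Plvap and 58.0% of those without, and Cldn5, a rule gene, in 73.4% and 95.7%. Yet Slc2a1 and Plvap were found together in 48 barcodes, with 40 that had Slc2a1 alone, and Cldn5 and Plvap together in 102. For Dll4 and Notch4, by contrast, the share of Dll4 was 36.1% with Notch4 and 36.0% without. Kdr and Flt1 were found together in 152 barcodes.

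The library also holds, outside the members, 286 oligodendrocyte lineage-like and 96 astrocyte-like barcodes, cell types of the central nervous system. In sub-cluster 5 astrocyte markers summed to 9.24 CPM and oligodendrocyte lineage markers to 12.9 CPM, against 7206 and 4458 CPM in their own cells. Whether the barrier-type barcodes, or those of other sub-clusters, come from vessels of the ganglion or of attached central tissue cannot be told apart from the labels. When all 367 members were clustered, 21 of the 24 fell in 1 sub-cluster of 24.

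Sub-cluster 6, of 20 barcodes, was named arterial-like, with 10 of 12 arterial markers raised. Among these Gja5, a gap protein of arteries, stood at 179 against 0.837 CPM, in 8 of 20 barcodes against 1 of 233, and Gja4 at 765 against 34.7 CPM. Listed genes that did not serve the name were also highest there. The chemokine Cxcl12 was 6.69-fold (5.42 to 8.23) higher than in the other cluster members at 812 CPM, and Edn1 3.75-fold (2.33 to 5.82). The matrix genes Ltbp4 and Col18a1 were 9.43-fold (7.80 to 11.4) and 7.89-fold (6.57 to 9.45) higher, and the WNT inhibitor Dkk2 36.3-fold (17.5 to 80.9), in 6 of 20 barcodes. Mural markers were present in this group, with 9 of 10 detected and a sum of 1505 CPM, against 12.9 to 862 CPM in the other sub-clusters. Few barcodes held them: Acta2, at 741 CPM, was found in 4 of 20, and Tagln, at 341 CPM, and Rgs5, at 245 CPM, in 1 of 20 each. Erythroid markers were also at their highest there, at 63028 CPM, as were astrocyte markers, at 125 CPM with 4 of 6 detected. The part of these cells in the values was not tested.

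Sub-cluster 3, of 34 barcodes, was named venous-like, with 8 of 11 venous markers raised. Of these Selp stood at 769 against 13.9 CPM, in 20 of 34 barcodes against 10 of 219, and Sele at 462 against 15.8 CPM. Among listed genes without a part in the name, Fabp4 was 28.7-fold (25.2 to 32.7) higher at 3638 CPM, the growth factor Igf1 17.1-fold (11.8 to 25.2) and the clotting factor F8 13.9-fold (7.63 to 26.5). The lipid receptor Cd36, listed as a capillary marker, was 8.66-fold (6.05 to 12.5) higher and Slit3 23.05-fold (13.2 to 42.6). Spp1 reached 3196 CPM from only 7 barcodes. Sema3a was found in 8 of 34 and 0 of 219. Plvap was high there, at 1028 CPM, and Slco1c1 low at 5.03 CPM. Macrophage markers were at their highest in this sub-cluster, with a sum of 229 CPM against 19.3 to 149 CPM elsewhere. Of 8 macrophage markers 2 were raised, as were 2 of 10 mural markers. The part of such cells in these values was not tested. In the clustering of all 367 members, arterial-like and venous-like barcodes were not parted: 15 of the 20 and 21 of the 34 fell in the same sub-cluster of 42.

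Sub-clusters 0 and 1, with 56 and 47 barcodes, were left unnamed. Sub-cluster 0 was led by the interferon-inducible GTPases Irgm1 and Iigp1 among others. Of 5 interferon genes, Irgm1 and Ifi47 were clearly highest there, at 196 and 70.2 CPM. Iigp1 and Cxcl10, at 339 and 182 CPM, stood at 329 and 183 CPM in the venous-like sub-cluster 3. Rsad2 was highest in sub-cluster 1, at 83.8 CPM. In sub-cluster 0 Dll4 stood at 293 against 118 CPM, 2.48-fold (2.002 to 3.06), and was found in 38 of 56 barcodes against 104 of 197. The feedback inhibitors Spry4 (3.11-fold, 2.02 to 4.76), Spred2 (2.69-fold, 1.91 to 3.76) and Spry1 (2.56-fold, 2.14 to 3.05) were highest there too, as was Tap1 (4.03-fold, 2.41 to 6.72), which loads peptides on MHC class I. The FGF list summed to 1107 CPM in sub-cluster 0 and to between 466 and 914 CPM elsewhere. Immediate early genes were also highest there, with a sum of 16593 CPM against 7506 to 15614 CPM elsewhere, and their part in these values was not tested. Sub-cluster 1 was led by Rbp7 and Prr11, with Cd300lg. Esm1 (2.57-fold, 2.01 to 3.25), Gpihbp1 (2.52-fold, 2.12 to 2.98) and Plvap, at 1062 CPM (2.15-fold, 1.89 to 2.44), were among the listed genes higher there, as were Ramp3 (2.52-fold, 1.52 to 4.05) and the growth factor Igf2 (2.40-fold, 1.96 to 2.93).

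Cycling markers were raised in sub-clusters 4 and 7. Sub-cluster 4, of 24 barcodes, raised 12 of 12 cycling markers, with Mki67 at 414 CPM and Top2a at 553 CPM, in 21 and 23 of its barcodes. Sub-cluster 7 raised 9 of 12, with Mki67 at 267 CPM in 7 of 14 barcodes, and Mki67 was also found in 7 of the 24 capillary-like barcodes. Among listed genes with at least 20 UMIs in sub-cluster 4, the largest ratio to the other cluster members was that of the gap protein gene Gjc1, 1.995-fold (1.31 to 2.96). At equal depth Mki67 was found in 13.0% (8.73 to 18.3) of cluster members and Top2a in 12.5% (8.33 to 17.8), against 2.19% and 1.95% of neuron-like barcodes, which do not divide. Each of these genes was found in 9.33% (3.84 to 18.3) of mural-like barcodes, and in 34.2% and 25.8% of erythroid-like ones. Unthinned, the Mki67 shares were 20.6% of cluster members and 14.1% of neuron-like barcodes, at median depths of 6969 and 85203 UMIs.

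Sub-clusters 2 and 7 met the naming criterion, for mast cells (3 of 6 markers raised) and for cycling cells (9 of 12). They were still given no name because other cell types' genes led them, a choice made after the clusters were seen. The 34 barcodes of sub-cluster 2 had a median of 3187 UMIs and were led by mast cell and neuron genes such as Tpsb2, Mcpt4 and Tubb3, with Slco1a4 at 243 CPM in 11 of 34. The 14 barcodes of sub-cluster 7 had a median of 19938.5 UMIs and were led by glial genes such as Fabp7 and Ptprz1. In it Ntrk2 stood at 197 against 4.41 CPM and Dhh at 97.0 against 10.6 CPM, and all 10 mural markers were detected. Doublets are in effect still present in these data, since the caller marked 2 of 9427 barcodes, and they were not weighed for these groups.

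No lymphatic group was found. Lyve1, a lymphatic marker, had 0 UMIs in the 253, which allows a share of up to 1.19% of barcodes with a UMI. Prox1, the lymphatic regulator, had 36 UMIs over 26 barcodes, Pdpn 20 over 6 and Reln 6 over 6. Outside the 253, 1 member had 9 Lyve1 UMIs. At least 3 of the 6 markers counted, which include Flt4 and Mmrn1, were found together in 10 of 253.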

How the data were processed

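The ganglion library is a droplet single-cell RNA-seq library. The authors deposited UMI counts per gene and barcode, raw and not normalised, per the file headers, which give Cell Ranger 7.0.1; per the submitters' processing notes it was Cell Ranger 3.1.0 with mm10. The sources used here do not say whether intronic reads or strand were used. Barcodes with at least 1000 UMIs, 500 genes and at most 20% mitochondrial UMIs were kept (9427 of 13065, with 32285 genes). CPM, ratios and intervals were computed from these counts. Depth sets their precision: with 1 library they cover counting error only.

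The members and gene lists were chosen with earlier results of these data known. Named genes were, per list, up to 4 with the largest and 3 with the smallest ratio among those counted, FGF and Hedgehog genes with at least 20 UMIs, up to 15 outside the lists, up to 8 each way against mural-like barcodes, and up to 5 per sub-cluster; the text gives a part. Other named genes were chosen after their values were seen. Clusters came from scanpy 1.11.5 and leidenalg 0.10.2 (2000 variable genes without listed genes, 30 components, 20 neighbours, resolution 1; 15 and 15 for sub-clusters). A name needed a mean log2 ratio above 0.3 and 3 raised markers. Leaving unnamed those clusters whose median UMI count was under the library median divided by 3, or led by another type's markers, was settled after clusters were seen. Scrublet called 2 of 9427 barcodes, or 0.0212%, at a threshold of 0.630, so it had not worked. Positions used an annotation that held 32158 of 32285 identifiers. Cdh5, Dll4, Spry1 and Plvap overlap genes of the opposite strand. Some genes are not reported here. Other tools were scipy 1.17.1 and pandas 2.3.3. The ratio criterion was tested on simulated data.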

Additional observations from a re-analysis of the deposited data

How the results depend on the processing

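No paired analysis was possible because only 1 ganglion library was analysed. Counted as UMIs per barcode, 1140 genes were higher and 5926 lower in members than in other barcodes. Keeping only cluster members low in Col1a1 and without Rgs5, an alternative chosen after seeing the data, left 217 members. Of 234 ratios, 117 moved under it, 2 changed side and 115 stayed within their interval. The share of all members with a Kdr UMI, 63.5% at 3000 UMIs, was 44.7% when thinned to 1500 UMIs and 69.8% at 5000, and for Dll4, 31.4% at 3000 UMIs, 18.01% and 39.6%. In members of the endothelial-like cluster the shares were 59.9% and 85.5% for Kdr and 24.5% and 47.6% for Dll4. Of 3172 values of 234 ratios under other settings, 5 changed side, 740 moved and 2427 stayed within their interval. These totals include other minimum counts (50 UMIs or none), which cannot change a ratio and left 234 of 234 the same each time. On the scale of UMIs per barcode 116 of 234 moved. With clusters of other barcodes weighted equally, 87 moved and 50 stayed. The ratio of Hhip to other barcodes became 1.44 at a marker threshold of 3 per 10000. The ratio of Boc to mural-like barcodes became 0.685 in cluster members and 0.647 in those low in Col1a1 and Rgs5, and the ratio of Cd74 to mural-like barcodes 0.294 and 0.353. The cause was not tested. Depth limits what can be said of Dll4, Gli1 and other scarce genes per barcode. Doublets and free RNA are not removed, and a result in 1 library may not hold in another.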
